A study of Mus musculus with 22 samples.

Results

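Endothelial cells line blood vessels and pericytes wrap around small ones, and 10 genes that mark these cells were followed through the series: Pecam1, Cdh5, Kdr, Emcn, Tie1, Tek, Cldn5, Egfl7, Esam and Rgs5. They were chosen by name, and each symbol matched exactly 1 row in every deposited count table. They were 10 of 34866 genes in the culture tables and 10 of 23911 genes in the main cartilage table.

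The series measured RNA in 22 mouse samples with or without the gene for the maintenance DNA methyltransferase Dnmt1. Control samples carried the Dnmt1 flox allele with no Cre named, and knockout samples (cKO) were Prrx1-Cre;Dnmt1 flox/flox. Untreated chondrocytes cultured from knee articular cartilage (day 0) gave 3 control and 3 cKO samples, and cultures given BMP2 for 3 days at a labelled 100 ng/µl (day 3) gave 4 of each. Mice for these cultures were 3 to 5 days old. Cartilage taken at postnatal day 5 gave 4 control samples, labelled flox, and 4 cKO samples, with replicates 1 and 2 male and replicates 3 and 4 female in both groups. The tissue was treated with collagenase so as to leave out connective tissue. The Prrx1 driver is active in the mesenchyme of the limb bud, from which cartilage, bone and connective tissue cells arise, and the labels do not say which other cells had lost the gene. The labels call the culture samples biological replicates but tie none of the samples to a litter, so a p-value measures only the spread between these samples.

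Cartilage itself holds no blood vessels, and vessels enter it as the growth plate and the ossification centres turn to bone. Endothelial cells answer to VEGF through the receptor tyrosine kinase Kdr, while the receptor Tek binds angiopoietins and pairs with the related receptor Tie1. Neighbouring endothelial cells are held together by the cadherin Cdh5, the claudin Cldn5 and the immunoglobulin-family proteins Pecam1 and Esam. Emcn is a surface sialomucin and Egfl7 a secreted protein of endothelium. Rgs5, a brake on G protein signalling, marks pericytes rather than the endothelium. Fewer vascular cells and less RNA per vascular cell cannot be told apart in bulk RNA.

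Since Dnmt1 copies methylation at CpG sites, the 250 bases before the start of 2 genes are shown, with each CpG in capitals. These had the largest genotype differences among the calls made after the filter on low counts. Without that filter Kdr was called at day 3 with a larger difference than both. Esam was called without it on both days, with differences between those of Rgs5 and Tek in size. The unfiltered calls of Kdr and Esam came from a few counts. Tek rose in the day 0 cKO cultures, and Rgs5 fell in cKO cartilage. Both are RefSeq sequences on GRCm38.p6, plus strand, at chr4:94739039-94739288 for Tek and chr1:169655251-169655500 for Rgs5.
Tek: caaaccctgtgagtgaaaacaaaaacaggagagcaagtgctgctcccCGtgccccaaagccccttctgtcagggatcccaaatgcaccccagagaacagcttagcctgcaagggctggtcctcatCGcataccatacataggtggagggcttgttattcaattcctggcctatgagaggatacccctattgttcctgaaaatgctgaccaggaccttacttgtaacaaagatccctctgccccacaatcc
Rgs5: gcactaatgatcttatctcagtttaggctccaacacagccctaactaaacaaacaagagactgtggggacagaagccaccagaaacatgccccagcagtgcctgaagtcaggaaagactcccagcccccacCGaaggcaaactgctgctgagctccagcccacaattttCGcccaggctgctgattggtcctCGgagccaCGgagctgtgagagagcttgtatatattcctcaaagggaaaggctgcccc
The Tek stretch held 2 CpG and the Rgs5 stretch 4, against a median of 6 (quartiles 2 and 16) over 32851 such stretches. Methylation was not measured, so these counts only describe the letters. In all, 7 of the 10 genes had an entry, and Emcn had 1 CpG, Tie1 6, Cldn5 12 and Kdr 16. The 3 annotated starts of Egfl7 had 3, 7 and 17. The ETS-type word AGGAAG, searched on both strands with overlapping copies counted, occurred in the stretches of Emcn, Tie1 and 2 of the Egfl7 starts, and in 29.5% of all stretches. It was not found in those of Tek, Rgs5, Kdr or Cldn5, nor at the Egfl7 start with 17 CpG.

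Depth set what could be seen. The total count per sample was 41749546 to 51741669 at day 0, 14434320 to 18918905 at day 3 and 1100198 to 1888896 in cartilage. Levels are given as CPM, counts per 1000000 counts with TMM scaling, and a library with at most 3 counts of a gene was taken as at the floor, which lay between 1.54 and 2.75 CPM in cartilage, 0.0557 and 0.0691 CPM at day 0 and 0.151 and 0.211 CPM at day 3, for counting error only. Dnmt1 RNA was lower in every cKO library than in every control library, with log2 fold changes of −2.44 at day 0, −1.41 at day 3 and −1.66 in cartilage (edgeR adjusted p 1.62e-08, 0.00625 and 6.34e-05). None of 10 chondrocyte markers was at the floor throughout any group. The control cartilage libraries made up pool 1 and the cKO ones pool 2, so pool and genotype cannot be told apart there. CPM of the cultures and of cartilage, which were made by different library methods, are not on a common scale.

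In cartilage Rgs5, listed as the pericyte marker, fell in the cKO, and the endothelial genes gave no call. Which cells carried the Rgs5 RNA was not measured. It also read 2.67 to 25.2 CPM in the day 3 chondrocyte cultures, where Cdh5 had 0 to 3 counts. Of the 10 genes, 7 passed the filter on low counts, and 1 of the 7 was called at an adjusted p under 0.05 by edgeR's quasi-likelihood test with sex as a covariate, against 6.19% of the 8793 genes tested (3.04% called lower). With library totals in place of TMM scaling 289 genes were higher and 156 lower, against 277 and 267. The 7 had a median log2 fold change of −0.41, with 6 below 0, while all genes tested had a median of 0.01, with 49% below 0. The other 6 ranged from −1.16 for Cdh5 to 0.00 for Kdr.

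Rgs5 (ENSMUSG00000026678, chromosome 1, 169655501 to 169695813 on GRCm38) read 46.5, 53.8, 47.7 and 115.8 CPM across control libraries 1 to 4, numbered by replicate, against 8.40, 23.6, 42.8 and 9.48 CPM across cKO libraries 1 to 4. Every cKO library was below every control library, which held for 6.4% of all genes tested, and control replicate 4 stood far above the other controls. The group means came to 65.95 ± 33.4 CPM in control and 21.1 ± 16.1 CPM in cKO (SD, n = 4 each). The log2 fold change was −1.68 (SE 0.363; edgeR adjusted p 0.0108). Without control replicate 4 it was −1.32 and lost its call (edgeR adjusted p 0.0552), and DESeq2 gave −1.65 with an adjusted p of 0.101. The separately deposited estimated counts gave −1.62 (edgeR adjusted p 0.0311, with 6.74% of genes called), but there 1 of the 16 pairs of a cKO and a control library was in the opposite order.

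Cdh5 (ENSMUSG00000031871, chromosome 8, 104101625 to 104144511), the cadherin of endothelial junctions, stood at 20.3, 29.9, 26.6 and 42.7 CPM across control libraries 1 to 4. It stood at 5.88, 20.1, 21.4 and 6.89 CPM across cKO libraries 1 to 4. The groups met only where cKO replicate 3 passed control replicate 1, and cKO replicates 1 and 4 were far below the rest. Its means, 29.9 ± 9.46 in control and 13.6 ± 8.33 CPM in cKO (SD, n = 4 each), differed by a log2 fold change of −1.16 (SE 0.341) that missed the threshold (edgeR adjusted p 0.0562). It was called without the filter on low counts (−1.20, edgeR adjusted p 4.71e-05), with the replicate number as a block (−1.19, 0.0441) and without cKO replicate 2 (−1.54, 0.0125). The unfiltered fit also took Rgs5 to an edgeR adjusted p of 1.63e-15 at a log2 fold change of −1.73. For both genes its p-values were thus far smaller at nearly the same fold changes, and why was not tested. Leaving out control replicate 4 moved it away from the threshold (−0.95, edgeR adjusted p 0.192), as did leaving out cKO replicate 4 (−0.86, edgeR adjusted p 0.180). In the estimated counts every cKO library was below every control library for Cdh5 (4.35 to 16.4 against 16.5 to 34.6 CPM), like 7.3% of all genes tested there. Its log2 fold change there was −1.23, again without a call (edgeR adjusted p 0.0556). The annotated gene Gm29682 lies across Cdh5 on the opposite strand, and whether the counting used strand is not given in the sources used here.

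The adhesion proteins Pecam1 and Esam gave smaller differences, with some overlap of the groups. Pecam1 (ENSMUSG00000020717, chromosome 11, 106654217 to 106750628) had 22.5, 35.8, 25.7 and 37.6 CPM in the controls and 16.8, 32.4, 19.6 and 18.95 CPM in the cKO, in replicate order. Most cKO values lay below the controls, though cKO replicate 2 lay within their range, and the log2 fold change of −0.49 (SE 0.245) was not called (edgeR adjusted p 0.257). The level of Pecam1 depended on the deposited table: in the estimated counts the same libraries held 189.1 to 301.7 CPM, 7.17 to 12.3 times the whole-number value. Its estimated counts were not whole in 8 of 8 libraries, which leaves its share of reads uncertain. Esam (ENSMUSG00000001946, chromosome 9, 37528078 to 37538319) had 9.76, 12.8, 11.01 and 14.4 CPM in the controls and 8.40, 10.5, 13.4 and 4.31 CPM in the cKO. Its groups overlapped, and its log2 fold change of −0.41 (SE 0.320) was not called (edgeR adjusted p 0.481).

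Kdr, Emcn and Egfl7 differed by less than the spread between replicates. For the VEGF receptor Kdr (ENSMUSG00000062960, chromosome 5, 75932827 to 75978458), control libraries 1 to 4 held 11.3, 13.7, 15.6 and 20.1 CPM, against 10.1, 25.4, 16.9 and 9.48 CPM in the cKO. The highest and the lowest of the 8 libraries were both cKO, and the log2 fold change was 0.00 (SE 0.339, edgeR adjusted p 0.999). Emcn (ENSMUSG00000054690, chromosome 3, 137341067 to 137432185) ran from 5.25 to 17.4 CPM in the controls and from 6.03 to 13.4 CPM in the cKO, with a log2 difference of −0.16 ± 0.362 (SE; by edgeR, adjusted p 0.830). Egfl7 (ENSMUSG00000026921, chromosome 2, 26580014 to 26593120) ran from 6.42 to 17.9 CPM in the controls and from 5.17 to 16.1 CPM in the cKO, with a log2 difference of −0.20 ± 0.352 (SE; by edgeR, adjusted p 0.774). The cKO range of Emcn lay inside its control range, and the ranges of Egfl7 overlapped.

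**Figure D1:**
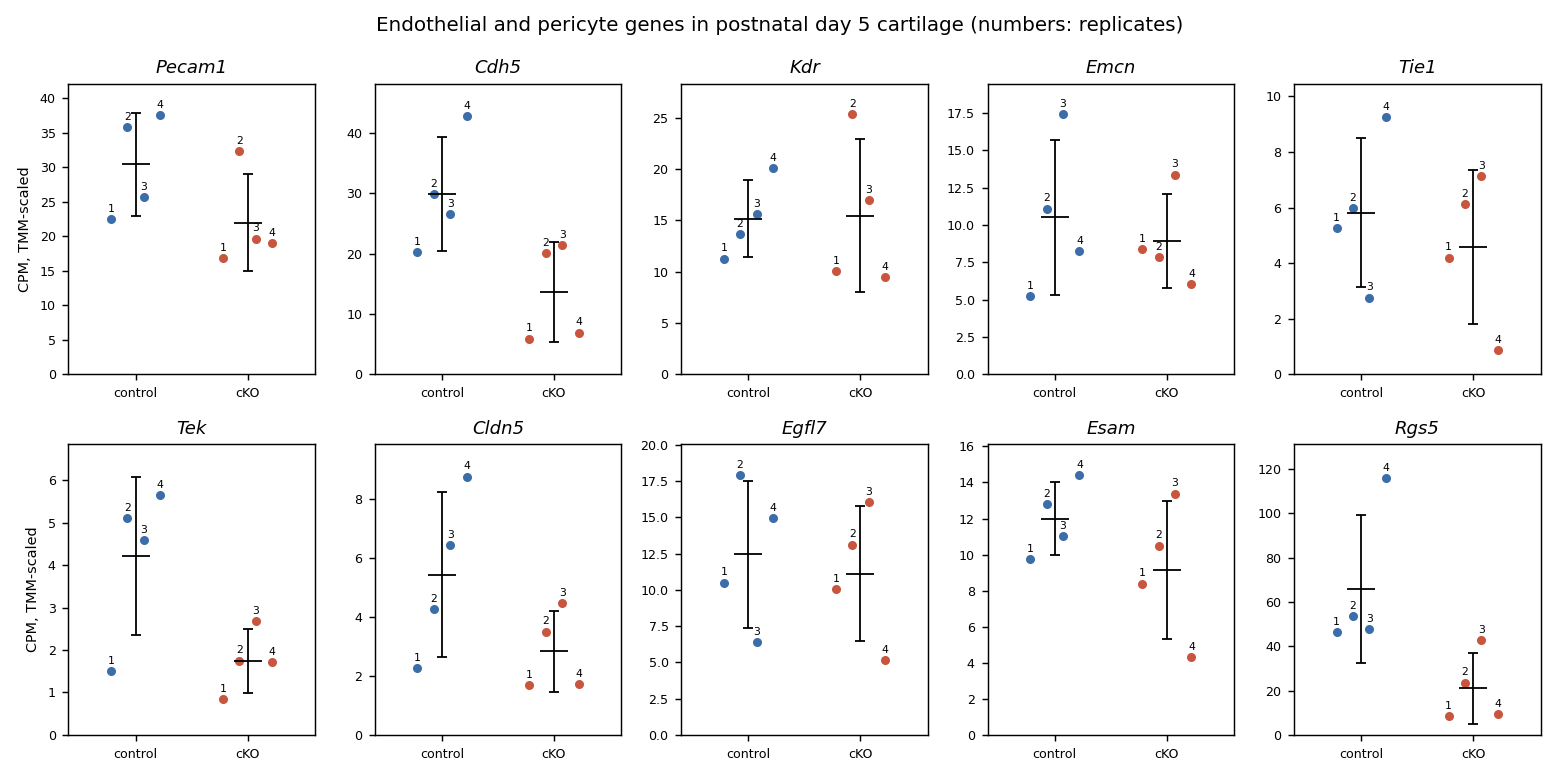
TMM-scaled CPM (vertical axes from 0, 1 panel per gene) in 4 control (blue) and 4 cKO (red) cartilage libraries, with points numbered by replicate and black bars for the mean ± SD. Rgs5 is the panel in which the groups do not overlap, and control replicate 4 is at 115.8 CPM there.

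The angiopoietin receptor Tek, its partner Tie1 and the claudin Cldn5 did not pass the filter, and their values lay close to the floor. Tek (ENSMUSG00000006386, chromosome 4, 94739289 to 94874976) had 2, 6, 5 and 11 counts across control libraries 1 to 4 but 1, 2, 3 and 2 across the cKO, so every cKO library was at the floor. The ratio of the control to the cKO rate was 2.5, with an exact 95% interval of 1.09 to 6.44 for counting error alone. Without the filter Tek had a log2 fold change of −1.28 (edgeR adjusted p 0.282). Cldn5 (ENSMUSG00000041378, chromosome 16, 18776847 to 18778262) ran from 3 to 17 counts in the controls and from 2 to 5 counts in the cKO, and its unfiltered log2 fold change was −0.97 (edgeR adjusted p 0.374). Tie1 (ENSMUSG00000033191, chromosome 4, 118471191 to 118490061) ran from 3 to 18 counts in the controls and from 1 to 8 counts in the cKO (−0.47, edgeR adjusted p 0.772). None of these 3 genes was called by the unfiltered fit, which called 4.37% of 23911 genes. In the estimated counts Tie1 passed the filter and was not called, and its values were not whole in 8 of 8 libraries, as for Pecam1. Tek did not pass the filter there either, at 2 to 17 counts in the controls and 1 to 3 in the cKO.

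The members shared many of their highest and lowest libraries. Control replicate 4 was the highest of the 8 libraries for 7 of the 10 genes, and cKO replicates 1 and 4 were the lowest for 5 and 4 of them. How often these libraries were the highest or lowest over all genes was not counted. Control replicate 4 also had the largest total count, 1888896, and the lowest share of ribosomal RNA, 9.96%. The summed level of the 10 genes was 135.1, 190.3, 164.2 and 277.5 CPM across control libraries 1 to 4, compared with 74.7, 144.3, 157.9 and 64.6 CPM across the cKO. Thus cKO replicates 2 and 3 overlapped the controls, while the other two cKO libraries lay below all of them. The low cKO libraries were 1 male and 1 female, and the genotype effect did not differ detectably between the sexes. For that sex interaction edgeR called 0 of 7 members, 0 also at an unadjusted p under 0.05, and DESeq2 called 0 by either measure, while over all genes edgeR called 0.0114%, and 4.97% had an unadjusted p under 0.05.

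**Figure D2:**
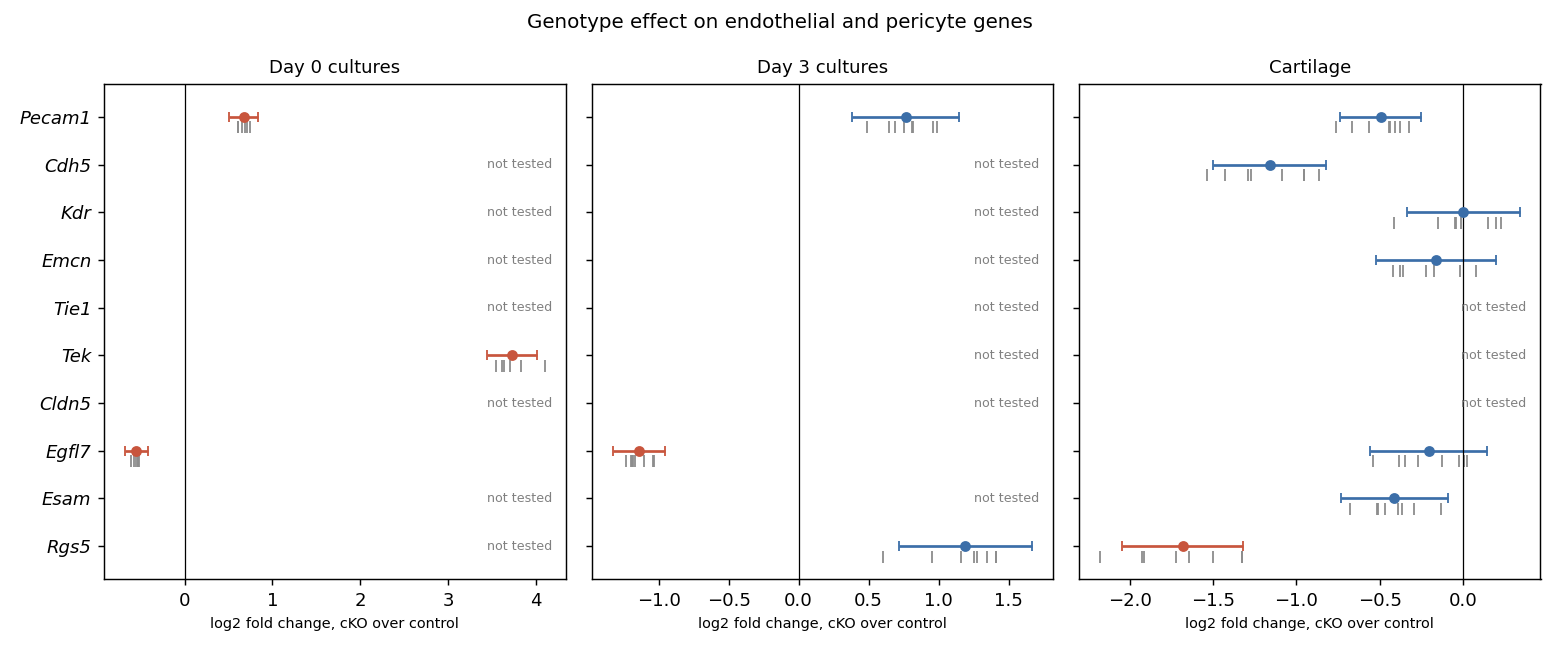
Log2 fold change of cKO over control (horizontal axes) with its SE for each gene at day 0, at day 3 and in cartilage, in red where the adjusted p was under 0.05 and in blue where it was not. Grey ticks give the value with each library left out in turn; those of Rgs5 in cartilage run from −2.18 to −1.32.

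Other vascular genes were counted from lists of markers. Of 32 further endothelial genes, 14 passed the filter in cartilage. Of all genes, 3.15% were called higher and 3.04% lower. Among the 14, 1 was called higher, Eng, a co-receptor for BMP and TGF-beta ligands (log2 fold change 0.81, edgeR adjusted p 0.0110), and 1 lower, the ETS factor Fli1 (−0.68, edgeR adjusted p 0.0462). The 14 had a median log2 fold change of −0.25, with 10 below 0. Their list summed to 361.0 to 570.4 CPM in the controls and 333.3 to 506.4 CPM in the cKO, with overlap. Eng read 34.96 to 44.9 CPM in the day 0 control cultures, where Cdh5 had 0 counts, so the list is not purely vascular.

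Among 15 other mural genes, those of pericytes and vascular smooth muscle, 6 passed the filter in cartilage. The 6 had a median log2 fold change of 0.04, with 2 below 0. Only Des, an intermediate filament protein shared with skeletal muscle, was called, and it was higher in the cKO (log2 fold change 1.44, edgeR adjusted p 0.0241). The list summed to 766.2 to 944.7 CPM in the controls and 731.5 to 848.1 CPM in the cKO, most of it from Cspg4. The pericyte potassium channel subunit Abcc9, singled out after its values were seen, did not pass the filter. Abcc9 had 10, 5, 7 and 16 counts across control libraries 1 to 4 but 0, 2, 0 and 0 across the cKO, without overlap. The ratio of the control to the cKO rate of Abcc9 was 15.8, with an exact 95% interval of 4.09 to 136 for counting error alone. The unfiltered fit called Abcc9 (edgeR adjusted p 3.40e-06), but that fit also gave Rgs5 and Cdh5 far smaller p-values than the filtered one. Its channel partner Kcnj8 had values near the floor in both groups, at 1.71 to 9.27 CPM in the controls and 0.861 to 4.20 CPM in the cKO.

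Of 16 genes of VEGF, angiopoietin and PDGF-B signalling and of vascular growth control, 11 passed the filter in cartilage. Of these 1 was called, Thbs1, which encodes the angiogenesis inhibitor thrombospondin 1, and it fell in the cKO (log2 fold change −0.84, edgeR adjusted p 0.00382). The 11 genes had a median log2 fold change of −0.34, with 9 below 0. The list summed to 4923 to 5397 CPM in the controls and 3178 to 4366 CPM in the cKO, without overlap. Vegfa itself, the main ligand of Kdr, ran from 290.4 to 425.6 CPM in the controls and from 276.5 to 336.7 CPM in the cKO (log2 fold change −0.25, edgeR adjusted p 0.334). The cartilage angiogenesis inhibitor Cnmd was not called either (−0.34, edgeR adjusted p 0.337).

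Several lists of other cell markers moved in the same libraries. The erythroid list had 4 of 4 tested genes lower in the cKO, all of them globins, with log2 fold changes from −2.16 (Hba-a2) to −1.79 (Hbb-bt). It summed to 166.6, 313.1, 534.7 and 916.9 CPM across control libraries 1 to 4, but to 13.4, 83.1, 388.9 and 66.3 CPM across the cKO. As for the vascular members, control replicate 4 was the highest library and cKO replicate 1 or 4 the lowest. The same held for the other endothelial, osteoclast, leukocyte and macrophage, osteoblast and adipocyte sums, so it was not particular to blood and vessels. It did not hold for the mural, signalling, platelet, skeletal muscle, Schwann cell and chondrocyte sums. The osteoclast list had 3 of 3 tested genes lower, Mmp9 (−4.59), Acp5 (−3.42) and Ctsk (−0.82), and summed to 126.1 to 458.2 CPM in the controls and 59.6 to 118.6 CPM in the cKO. The leukocyte and macrophage list had 0 of 4 tested genes called and summed to 71.3 to 149.3 and 68.9 to 141.8 CPM, and platelet genes, at 12.8 to 28.5 and 11.8 to 36.6 CPM, overlapped as well. The summed level of 8 skeletal muscle genes, 11.1 to 16.5 CPM in the controls and 49.1 to 83.1 CPM in the cKO, was higher in each cKO library, as was that of 4 Schwann cell genes, 4.59 to 9.76 and 24.98 to 32.4 CPM. Only 1 gene of each of these lists passed the filter, and it was called higher, while 6 of the muscle genes and 2 of the Schwann cell genes were at the floor in every control. The chondrocyte list had 4 of 10 tested genes called lower and 10 of 10 below 0, and summed to 64555 to 96635 CPM in the controls and 29305 to 58478 CPM in the cKO, without overlap. Adipocyte genes were at 20.2 to 37.1 and 8.40 to 32.1 CPM. Osteoblast genes, at 28040 to 56169 and 13430 to 33609 CPM, had 0 of 3 tested genes called. The part of these other cell markers in the Rgs5 result was not tested.

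**Figure D3:**
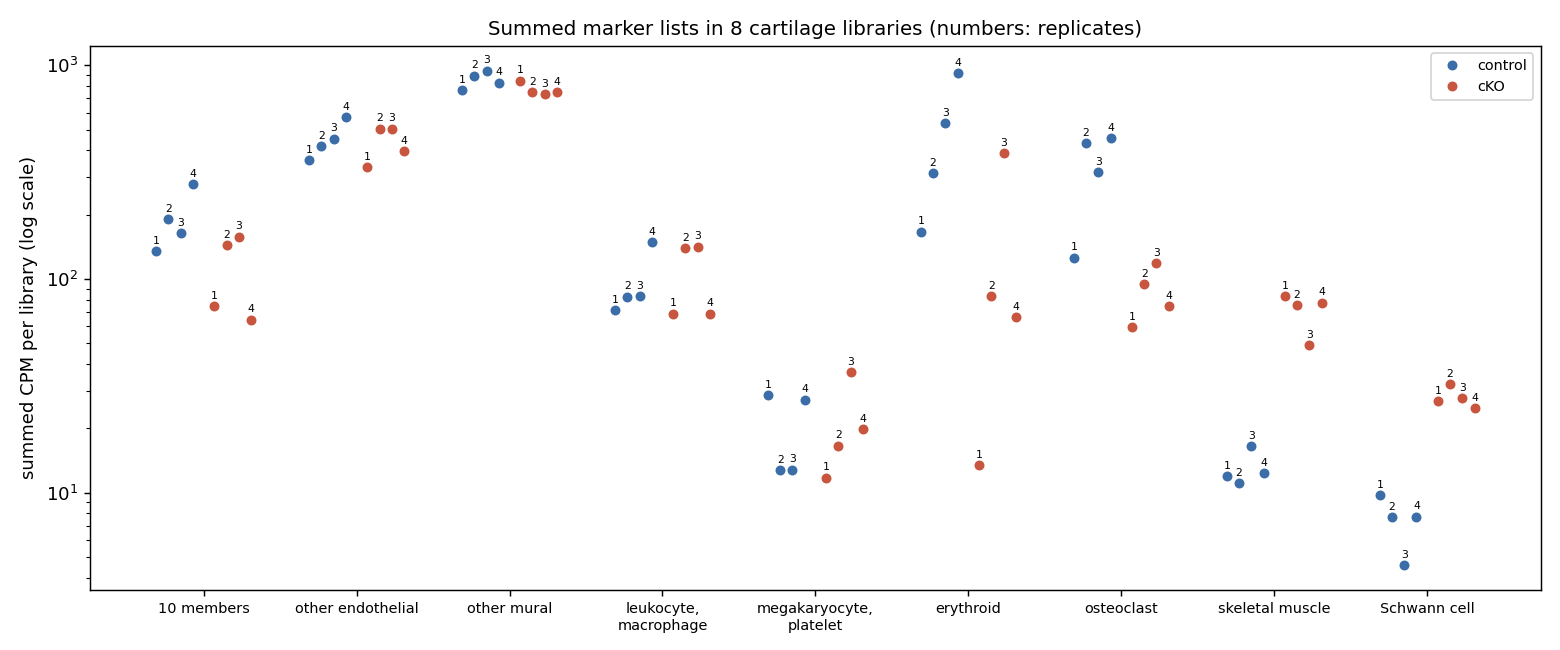
Summed CPM (log axis) of marker lists in the 4 control (blue) and 4 cKO (red) cartilage libraries, with points numbered by replicate. The signalling, chondrocyte, osteoblast and adipocyte lists are not drawn. The 10 vascular members and the erythroid list are both highest in control replicate 4 and low in cKO replicates 1 and 4. Control replicate 4 is also the highest library for the other endothelial, leukocyte and macrophage, and osteoclast lists. Among the lists drawn, skeletal muscle and Schwann cell (higher in the cKO) and osteoclast (lower in it) do not overlap between the genotypes.

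The genes whose cartilage profile was most like the mean of the 7 tested members, by root mean square distance between standardised log2 CPM over the 8 libraries, were Ccng2 (0.165 SD), Gsn (0.179), Rora (0.267), Adamts2 (0.269) and Sfxn3 (0.272). All genes tested had a median distance of 1.33 SD. The 8 libraries differ in depth, and the 4 of each genotype share a pool, so this is a description.

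In the chondrocyte cultures most of the 10 genes were at or near the floor. Emcn had at most 3 counts, and Cldn5 at most 1, in every culture library, and Cdh5 had 0 counts in each of the 7 control cultures. In the cKO Cdh5 had 1, 1 and 4 counts across day 0 libraries 1 to 3 and 0, 3, 2 and 0 counts across day 3 libraries 1 to 4, so that 1 of these 7 libraries was above the floor. The unfiltered fits did not call it (edgeR adjusted p 0.0822 at day 0 and 0.182 at day 3). That leaves the defining endothelial genes nearly absent from cultures labelled as chondrocytes. At day 0, 3 of the 10 genes passed the filter, and all 3 were called: Tek and Pecam1 higher and Egfl7 lower in the cKO. With 64.5% of the 15530 genes tested at day 0 called, 33% higher and 31.6% lower (6452 genes higher and 3695 lower with library totals in place of TMM scaling, against 5119 and 4904), these calls say little about the 3 genes in particular.

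At day 0 Tek, the angiopoietin receptor, stood at 0.105, 0.183 and 0.0886 CPM across control libraries 1 to 3 and rose to 1.45, 1.76 and 1.91 CPM across cKO libraries 1 to 3. The counts behind these values were 4 to 9 in the controls and 63 to 103 in the cKO, so Tek passed the filter only through the cKO libraries, and a gene that enters this way had to differ. The groups did not overlap, as 35.9% of all genes tested had every cKO library above every control. Group means came to 0.125 ± 0.0503 and 1.71 ± 0.235 CPM (SD, n = 3 each), or a log2 difference of 3.73 ± 0.286 (SE; by edgeR, adjusted p 4.34e-06). Every setting tried kept this call, with values from 3.54 to 4.10 when single libraries were left out. The repeats that used the filter share that selection, so their agreement adds no support.

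At day 3 the same gene was back near the floor in both genotypes. Tek had 3, 4, 1 and 1 counts across the controls against 3, 2, 4 and 5 across the cKO, or 0.141 ± 0.0879 and 0.199 ± 0.0856 CPM (SD, n = 4 each). In the fit of all 14 cultures the cKO cells fell by 3.21 on the log2 scale from day 0 to day 3 (SE 0.366, edgeR adjusted p 9.13e-06), and the control cells had a change of 0.07 (SE 0.495, edgeR adjusted p 0.929). The genotype effects at day 3 and day 0 differed by −3.28 (SE 0.660, edgeR adjusted p 0.00541), the only one of 4 members tested for that interaction to be called, against 16.8% of all genes. Here too Tek passed the filter only through the day 0 cKO libraries, every other group having 1 to 9 counts. Day, BMP2 and count table changed together, so they cannot be told apart in this change.

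Egfl7 was lower in the cKO cultures on both days. Untreated, it read 2.73, 2.72 and 2.41 CPM across the controls against 1.86, 1.80 and 1.71 CPM across the cKO, without overlap, like 34.4% of all genes (log2 fold change −0.55, SE 0.127, edgeR adjusted p 0.00427). After BMP2 it read 8.01, 5.96, 6.26 and 6.08 CPM across the controls against 3.55, 3.33, 2.75 and 2.27 CPM across the cKO, again without overlap, like 22.7% of all genes. The log2 fold change there was −1.14 (SE 0.189, edgeR adjusted p 0.00145), and Egfl7 was the 1 of 3 tested members to be called at day 3, against 48.1% of 13924 genes (22.6% lower). The 2 effects did not differ by a called interaction (−0.61, SE 0.240, edgeR adjusted p 0.104). Control cells gained 1.23 on the log2 scale from day 0 to day 3 and cKO cells 0.62 (edgeR adjusted p 5.21e-05 and 0.00743), comparisons in which 56.9% and 62.2% of all genes were called. Egfl7 overlaps Gm20532, Mir126a, Mir126b and Agpat2 in the annotation, of which the first 2 share its strand, so some of its reads could be theirs.

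Rgs5, which fell in cKO cartilage, was not called between genotypes in the cultures by the main test. At day 0 it had 6 to 10 counts in the control and 6 to 9 in the cKO libraries, or 0.161 ± 0.0371 and 0.155 ± 0.0372 CPM (SD, n = 3 each). After BMP2 it read 6.25, 2.67, 7.81 and 5.20 CPM across control libraries 1 to 4 against 6.41, 8.28, 10.2 and 25.2 CPM across the cKO. The cKO values were mostly the higher, but the groups overlapped and cKO replicate 4 stood far above the rest. That library also had the lowest summed level of 10 chondrocyte markers, 1205 CPM against 11644 to 16552 CPM in the other cKO libraries and 87462 to 108111 CPM in the controls. The log2 fold change of 1.19 (SE 0.476) was not called (edgeR adjusted p 0.0675), though DESeq2 called it (1.20, adjusted p 0.0257). The fit of all 14 cultures called it too (1.17, edgeR adjusted p 0.0216), as did the fit without cKO replicate 1 (1.41, edgeR adjusted p 0.0423). Without cKO replicate 4 the value was 0.60 (edgeR adjusted p 0.126). From day 0 to day 3 Rgs5 rose by 4.95 (SE 0.578, edgeR adjusted p 1.24e-05) in control and by 6.17 (SE 0.591, edgeR adjusted p 2.19e-06) in cKO cells on the log2 scale. Rgs5 passed the filter of that fit only through the day 3 libraries, at 48 to 411 counts, so a rise had to appear. The difference of these changes was not called (1.23, SE 0.851, edgeR adjusted p 0.363). Effects in cartilage and cultures were fitted in separate tables, and their difference was not tested.

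Pecam1 was low in every culture. At day 0 it read 1.05, 0.873 and 0.930 CPM across the controls against 1.47, 1.65 and 1.43 CPM across the cKO. Each cKO library was above each control library, as for 35.9% of all genes (log2 fold change 0.67, SE 0.167, edgeR adjusted p 0.00617). The fit of all 14 cultures gave the same difference without a call (0.68, edgeR adjusted p 0.0913). At day 3 Pecam1 had 0.248 to 0.946 CPM in the control and 0.980 to 1.28 CPM in the cKO libraries, and 0.77 (SE 0.383) was not called (edgeR adjusted p 0.131), although each cKO library was above each control library as for 25.2% of all genes. Its interaction with day was 0.08 (edgeR adjusted p 0.929). Its estimated counts were not whole in any culture library, so the share of reads given to it is uncertain here too.

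Esam and Kdr reached only a few counts in the cultures and did not pass the filter. At day 0 Esam had 4, 2 and 1 counts across the controls against 22, 19 and 10 across the cKO. Without the filter its log2 fold change was 2.82 (edgeR adjusted p 0.00126), in a fit that called 42% of genes. At day 3 Esam had 1, 0, 1 and 0 counts in the controls and 4, 4, 5 and 15 counts in the cKO, a ratio of 12.3 with an exact 95% interval of 3.1 to 107 for counting error alone, and the unfiltered fit called it (edgeR adjusted p 0.0201). Both days thus had Esam counts above the control range in every cKO library. Kdr had 3 to 5 counts in the control and 5 to 11 in the cKO libraries at day 0 (unfiltered log2 fold change 0.86, edgeR adjusted p 0.330). At day 3 Kdr had 0 counts in all 4 controls and 3, 3, 1 and 7 counts in the cKO so only cKO replicate 4 was above the floor of 3 counts and no fold is given. The unfiltered fit called Kdr (edgeR adjusted p 0.0302), as it did 30.2% of genes. Tie1 had 3 to 14 counts at day 0 and 0 to 2 at day 3, with overlap between the genotypes on both days.

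**Figure D4:**
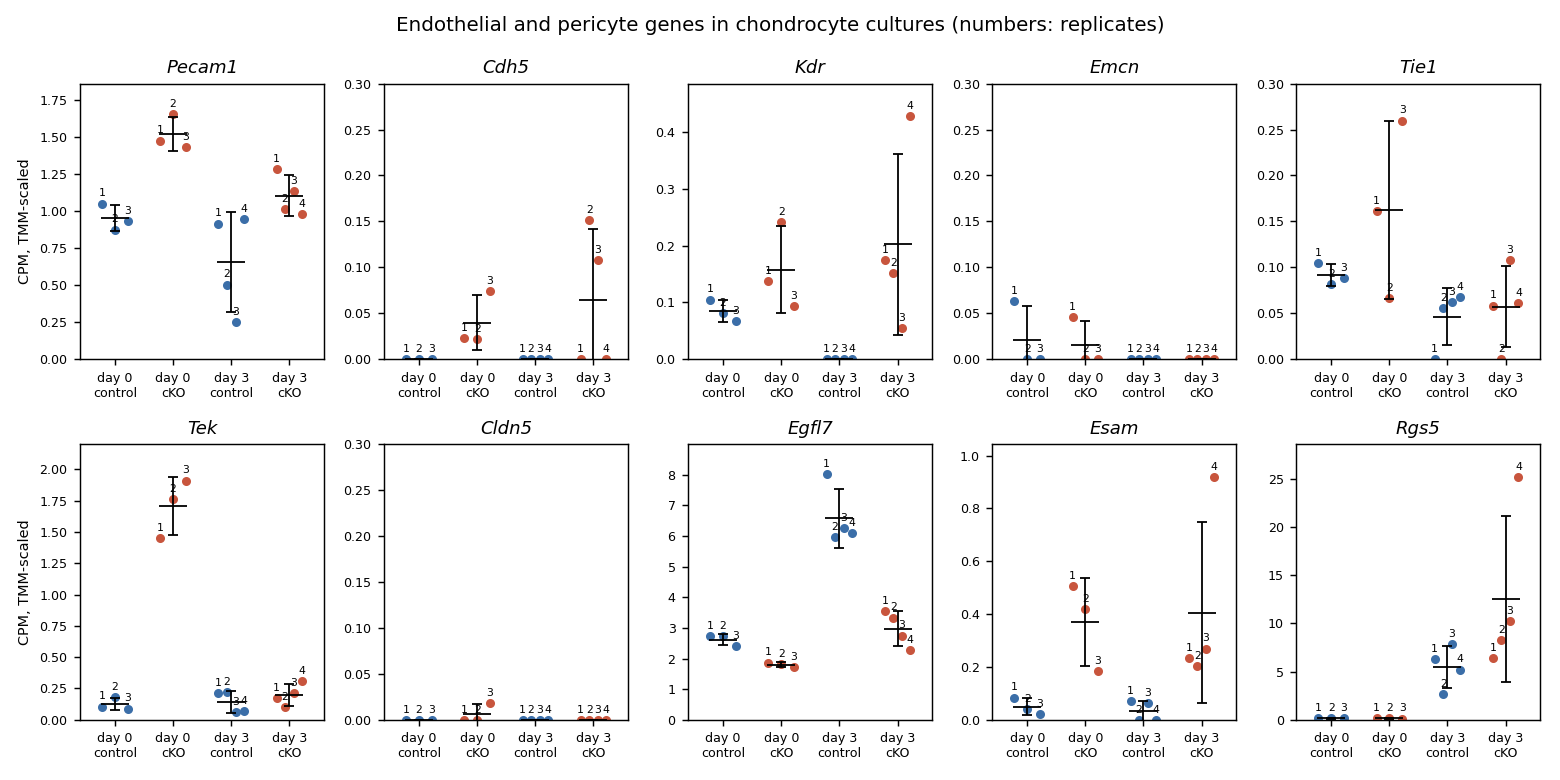
TMM-scaled CPM (vertical axes from 0, 1 panel per gene, scales differ) in day 0 and day 3 chondrocyte cultures, control in blue and cKO in red, with points numbered by replicate and black bars for the mean ± SD. Tek is high only in the day 0 cKO cultures, Egfl7 is lower in the cKO on both days, and Rgs5 in cKO replicate 4 at day 3 reaches 25.2 CPM.

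Other vascular genes in the cultures went both ways, as did all genes tested, of which 33% were called higher and 31.6% lower at day 0, and 25.5% higher and 22.6% lower at day 3. Of the 32 further endothelial genes, 20 were tested at day 0, with 6 higher and 5 lower in the cKO, and 16 at day 3, also with 6 higher and 5 lower. Those tested had a median log2 fold change of 0.03 at day 0, with 10 of 20 below 0, and of 0.05 at day 3, with 8 of 16 below 0. Flt4, a receptor of the VEGF family, led those that rose on both days (log2 fold changes 3.19 and 4.20, edgeR adjusted p 1.35e-06 and 0.00116), followed by Prox1 (2.52 and 3.77, edgeR adjusted p 2.48e-05 and 4.38e-05). The genes called lower are not named here, so Flt4 and Prox1 do not stand for the list. The ligand Angpt2, which binds Tek, was higher at day 0 (1.60, edgeR adjusted p 0.00153) and at day 3 (4.96, edgeR adjusted p 0.00322), and the Tek agonist Angpt1 was lower on both (−1.10 and −1.33, edgeR adjusted p 1.26e-04 and 0.0347). Vegfa was lower at day 0 (−0.70, edgeR adjusted p 2.33e-06) and higher at day 3 (1.15, edgeR adjusted p 2.66e-05). In total 3 of 15 genes of that signalling list were higher and 6 lower at day 0, and 6 of 14 were higher and 3 lower at day 3.

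The mural list had 6 of 11 tested genes higher and 3 lower at day 0, and 7 of 10 higher and 1 lower at day 3. Des (3.60 and 8.69) and Mcam (2.35 and 4.40) rose most on both days, and Cspg4 (−1.07 and −2.13) was lower on both. Abcc9, at 0 to 2 counts in cKO cartilage, instead rose in the day 3 cKO cultures (3.66, edgeR adjusted p 5.92e-04). Markers of other cells differed in the same libraries, some higher and some lower in the cKO. Skeletal muscle genes were called higher in 5 of 7 tested at day 0 and 9 of 9 at day 3, where the list summed to 151.8 to 2238 CPM in the cKO against 2.03 to 3.06 CPM in the controls. Its lowest cKO value was that of replicate 4, the library with the most Rgs5 and Esam. Leukocyte and macrophage genes were called higher in 6 of 8 and 5 of 7, and summed to 12.8 to 15.5 CPM in the cKO against 8.16 to 9.17 CPM in the controls at day 0. At day 0 the summed osteoclast (72.9 to 87.1 against 158.8 to 163.6 CPM), platelet (4.62 to 4.99 against 7.30 to 8.99 CPM) and osteoblast levels (1148 to 1469 against 1529 to 2712 CPM) were lower in each cKO library than in each control library. At day 3 the platelet sum was again lower in each cKO library (4.84 to 7.71 against 9.53 to 16.6 CPM), the osteoblast sum was higher (7034 to 9252 against 3776 to 5192 CPM), and the osteoclast sums overlapped. Chondrocyte genes were called lower in 10 of 10 at day 0 and 9 of 10 at day 3. The part of these other cell markers in the Tek, Esam and Rgs5 values of the cultures was not tested.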

How the data were processed

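RNA was measured in 14 chondrocyte cultures and 8 cartilage samples. For the cultures the authors deposited estimated counts, 1 table per day, rounded here to integers ahead of testing. For cartilage the authors deposited whole-number counts, the main values here, and estimated counts, used as an alternative. Cartilage libraries were made by a barcoded 3′ method with molecular identifiers (BRB-seq) and culture libraries with a directional kit for total RNA, per the labels' protocols. The submitters' processing notes name the build GRCm38 for all samples and, for cartilage, UMI-tools 1.1.1, Trim Galore 0.6.7, HISAT2 2.2.1, featureCounts 2.0.1 and DESeq2 1.34.0, with no role or order. The aligner and counter of the cultures are not given in the sources used here. Unused per-sample columns: 0.

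Genotype was tested with edgeR 4.0.16 (quasi-likelihood; R 4.3.3), TMM factors, filterByExpr (at least 10 counts, 15 in total) and Benjamini-Hochberg adjustment across every gene tested. Calls are at an adjusted p under 0.05. SE was taken as |log2 fold change| over the root of F. The 3 genotype comparisons were fitted apart, sex entering in cartilage alone, and the interaction and day changes came from 1 fit of 14 cultures. DESeq2 1.42.0 was an alternative. On simulated counts with known changes, the test recovered 86.9% of 2-fold changes at day 0 (15323 genes), 74.7% at day 3 (13775 genes) and 86.2% in cartilage (8590 genes); 8.08%, 2.26% and 3.35% of its calls were false. The simulation gave every gene of a comparison 1 common dispersion and changed genes drawn at random. Its shares therefore do not say how often a change in a member, many of which had few counts, would be called. Exact intervals are conditional binomial ones at 95%. Positions are from GENCODE M21, which matched 34582 of 34866 culture and 23884 of 23911 cartilage identifiers. No 2 replicates agreed within sampling noise (smallest chi-square per degree of freedom 3.53), so each library counted as 1 sample.

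The members, lists and alternatives were chosen with earlier results of these data known. All 10 members are described in each genotype comparison, and of the other lists at most 4 called genes per direction are named.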

Additional observations from a re-analysis of the deposited data

Results flagged for a closer look

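Among 29 groups of 4 libraries with a member above the floor, 3 had a library whose gap to its nearest neighbour exceeded Dixon's 95% critical value, and chance alone gives about 1 in 20. Rgs5 in control cartilage had replicate 4 at 115.8 CPM, against at most 53.8 CPM in the other controls. Egfl7 in the day 3 control cultures had replicate 1 at 8.01 CPM, against 5.96 to 6.26 CPM in the others. Esam in the day 3 cKO cultures had replicate 4 at 0.919 CPM, against 0.202 to 0.270 CPM in the others.

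The genotype effect on Tek differed between day 3 and day 0 by −3.28 on the log2 scale (edgeR interaction, adjusted p 0.00541). Tek passed the filter on low counts only through the day 0 cKO libraries, where it is high. It was high in 3 of 3 of those libraries, as entry through them required.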

How the results depend on the processing

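Repeats that left out no library gave a count of called members within 1.5 times of the main one in 23 of 29 cases. At day 3 the count went from 1 to 2 with DESeq2, to 3 without the filter and to 2 in the fit of all 14 cultures, and in cartilage from 1 to 0 with DESeq2, to 2 without the filter and to 2 with the replicate block. Leaving out single libraries gave 1 to 2 members at day 3 and 0 to 2 in cartilage (0 without control replicate 4). Without the filter the added calls at day 3 were Kdr and Esam, which the filtered fit had not tested. In cartilage the added call was Cdh5, which the filtered fit had tested. The cause of the shifts was not tested.

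Kdr in cartilage, 0.0012, changed sign without the filter (−0.041), with upper quartile scaling (−0.0011), with the replicate block (−0.034) and without the sex covariate (−0.0047). Values without single libraries crossed 0 for Kdr (−0.41 to 0.23), Emcn (−0.42 to 0.078) and Egfl7 (−0.54 to 0.028) in cartilage, for the Pecam1 interaction (−0.20 to 0.32) and for the Tek change in control (−0.27 to 0.43). None of these was called in any such repeat. The Pecam1 change from day 0 to day 3 was called lower in control without day 3 control replicate 1 or 4 (−0.86 and −0.89) and in cKO without day 3 control replicate 3 (−0.58).

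Same-numbered replicates did not pair: their deviations correlated at −0.0027, −0.026 and 0.246 at day 0, at −0.151 to −0.078 at day 3 and at −0.078 to 0.262 in cartilage, and not every library correlated best with its own number. The replicate block moved Cdh5 past the threshold and changed no other call of a member. With library totals in place of TMM scaling, the median of all genes at day 0 rose by 0.11 and no call of a member changed there.

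Depth limited Tek, Tie1 and Cldn5 in the whole-number cartilage counts, where they had too few counts to pass the filter. In the cultures 7 members did not pass it at day 0 and 7 did not at day 3. These were not all the same genes, as Tek passed only at day 0 and Rgs5 only at day 3. In the fit of all 14 cultures 6 did not pass, some of them at 0 counts.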
